A study of Mus musculus with 6 samples.

Results

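The R-spondins, their LGR receptors and the paired ubiquitin ligases were followed in the mouse hindlimb bud with and without LMX1B. The 9 genes were Rspo1, Rspo2, Rspo3, Rspo4, Lgr4, Lgr5, Lgr6, Znrf3 and Rnf43. All of their probe sets with a single gene symbol were taken, 15 of the 45037 tested, and all 9 genes had at least 1 probe set. The set was chosen by the difference of Rspo1 between the groups in these same arrays, and the other 8 genes were listed as its paralogues and receptors. The difference between the groups is therefore given for the 9 genes as a description, without a p-value.

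The study asked which genes LMX1B, a LIM homeodomain factor of dorsal limb mesenchyme, controls. RNA came from Lmx1b -/- embryos (3 pools) and from wild-type embryos (3 pools), all of the 129Sv strain at E11.5 (the embryonic day); no treatment is given for either group, and the labels name neither the mutant allele nor the sex of the embryos. A pool held both hindlimb buds of 3 embryos, 6 buds in all, of which the proximal 500 µm was used, and each pool was read on 1 array. Dorsal and ventral tissue and the overlying ectoderm were not separated, so fewer cells of a type and less RNA per cell cannot be told apart. Values are log2 RMA values (robust multi-array average, the authors' summary of the probes of a probe set), each with its SD over n = 3 pools. Differences are always the null mean less the wild-type mean, called the change, and carry the standard error (SE) from limma, which was fitted to all probe sets.

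R-spondins are secreted proteins that amplify WNT signals. ZNRF3 and RNF43 are transmembrane ubiquitin ligases that remove Frizzled receptors from the cell surface, and an R-spondin that bridges LGR4, LGR5 or LGR6 to such a ligase takes the ligase away, so that Frizzled stays. In the mouse limb, Rspo2 is known from mutants in which outgrowth is cut short and the apical ectodermal ridge is not kept. Lgr5, Znrf3 and Rnf43 are themselves induced by WNT signalling in several tissues, which makes them part of a feedback loop.

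The arrays were alike over all probe sets, with correlations of 0.993 to 0.997. The Lmx1b transcript checked the labels: its brighter probe set averaged 4.47 ± 0.21 in null pools and 7.93 ± 0.31 in wild-type pools, while a dim probe set of unknown position read 3.92 and 3.93. The 12 limb mesenchyme markers, Tbx4 and Pitx1 of the hindlimb among them, were all above the median probe set and averaged 9.71 to 9.78 in null pools and 9.72 to 9.79 in wild-type pools. Single markers moved both ways, 6 higher and 6 lower in null pools. Tbx4 changed by -0.29 (SE 0.09), with all null pools lower, and Hand2 by 0.27 (SE 0.07), with all null pools higher. Xist, the transcript of the inactive X chromosome, read 9.66, 9.16 and 10.79 in null pools 1 to 3, against 4.68, 9.88 and 4.72 in wild-type pools 1 to 3. Wild-type pools 1 and 3 thus stood apart from the other 4 pools in Xist. For Rspo1 and several other members the change is also given after adjustment for Xist or against wild-type pool 2 only. The values of the marker lists and the changes of single WNT pathway genes are given without adjustment for Xist.

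Promoter sequence is shown for the 3 genes with a probe set whose null values all lay above the wild-type values, Rspo1, Lgr4 and Rnf43, a choice made after the values were seen. The sequences are the plus strand upstream of the annotated gene start from RefSeq, build GRCm38.p6. The Rspo1 stretch, chr4:124986180-124986400, has 221 bases, the Lgr4 stretch, chr2:109917397-109917646, has 250, and the Rnf43 stretch, chr11:87662837-87663086, has 250. Capitals mark ATTA or its reverse complement TAAT, the short core that homeodomain proteins bind.
Rspo1: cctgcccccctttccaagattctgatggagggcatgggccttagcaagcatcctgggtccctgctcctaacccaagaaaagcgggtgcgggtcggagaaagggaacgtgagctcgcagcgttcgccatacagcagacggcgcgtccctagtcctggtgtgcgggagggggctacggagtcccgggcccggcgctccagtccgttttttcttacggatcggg
Lgr4: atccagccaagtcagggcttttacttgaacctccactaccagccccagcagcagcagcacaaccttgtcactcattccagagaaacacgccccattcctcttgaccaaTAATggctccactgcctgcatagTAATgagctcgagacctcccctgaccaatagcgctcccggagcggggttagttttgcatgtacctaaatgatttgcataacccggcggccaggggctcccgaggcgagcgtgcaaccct
Rnf43: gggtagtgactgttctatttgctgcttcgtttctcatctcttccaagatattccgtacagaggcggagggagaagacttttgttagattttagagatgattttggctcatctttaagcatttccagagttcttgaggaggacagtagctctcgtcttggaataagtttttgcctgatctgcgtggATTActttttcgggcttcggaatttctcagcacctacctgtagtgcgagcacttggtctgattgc
The Rspo1 stretch held 0 such cores, the Lgr4 stretch 2 and the Rnf43 stretch 1. Across 32851 promoter windows of 300 bases (250 before to 50 after a start), 58.0% held the short core on either strand. Windows were at hand for 5 of the 9 genes, 6 windows in all (Rspo1, Rspo4, Lgr4 and Lgr6 with 1 each, Rnf43 with 2), and 2 of the 6 held it. The longer core TAATTA, which contains the short one and reads the same on both strands, was in 0 of the 6 windows and in 5.29% of all. The TCF/LEF letters CTTTGAT, the site type of WNT target genes, searched on both strands, were also in 0 of the 6, against 3.73% of all. By base composition the Rspo1 window was 69.0% G and C and the Rspo4 window 71.0%, against a median of 52.7% over all windows, whereas the first Rnf43 window was at 46.7%. These matches describe the letters in the windows and say nothing about binding.

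Rspo1 was higher without LMX1B. Its single probe set read 6.10, 5.52 and 6.08 in null pools 1 to 3, against 4.90, 5.25 and 4.75 in wild-type pools 1 to 3. All 3 null pools lay above all 3 wild-type pools, and the gap from null pool 2, the lowest of its group, to wild-type pool 2, the highest of its group, was 0.27. The means were 5.90 ± 0.33 in null pools and 4.97 ± 0.26 in wild-type pools, a change of 0.94 (SE 0.18), or 1.91-fold. By signed change the probe set ranked 17 of 45037, highest first. Its mean over all pools lay at the 55.5th percentile of the probe set means, so it stood only a little above the median probe set. Being a single probe set, it has no second reading of the gene.

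The size of the Rspo1 difference varied with the pools and with the adjustment for Xist. Adjusted for Xist as a covariate, the change was 0.60 (SE 0.20), and when the 3 null pools were set against wild-type pool 2 only it was 0.65 (SE 0.24), an alternative chosen after seeing the data. Leaving out a null pool gave 0.84 to 1.13, and leaving out a wild-type pool gave 0.83 to 1.08. The part that the sex of the embryos plays in the result was not tested further than these values.

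Markers of other cells were read beside Rspo1 as summed intensities, the log2 values turned back to a linear scale in arbitrary units. The 8 muscle precursor markers summed to 839 to 929 in null pools and 697 to 825 in wild-type pools, and 6 of the 8 were higher in null pools. The 4 measured Schwann and neural crest markers summed to 370.4 to 411 in null pools and 254 to 357 in wild-type pools, with all 4 higher in their means. Of these only Tfap2a, with a change of 0.53 (SE 0.11), had all null pools above the wild-type pools. Sox10, Foxd3 and Erbb3 each had overlapping groups. On the log2 scale the muscle list means stayed apart, but the Schwann and neural crest means overlapped, at 6.04 to 6.24 in null pools and 5.64 to 6.05 in wild-type pools. Wild-type pool 1 was the lowest pool for both lists, and also in the sums of the surface ectoderm, neuronal and macrophage lists below. The 8 endothelial markers ran the other way, 911 to 962 in null pools and 976 to 1095 in wild-type pools, with 0 of 8 higher. For 12 surface ectoderm and apical ridge markers the sums overlapped, at 1266 to 1383 in null pools and 1100.5 to 1337 in wild-type pools, with 11 of 12 higher. The 8 markers of mesothelium, the lining of the body wall next to the bud, also overlapped, at 269.9 to 307 in null pools and 272 to 293 in wild-type pools, and 5 of the 8 were below the median probe set. Podxl, with a change of -0.10 (SE 0.10), was the largest part of each sum. Krt19, Msln and Lrrn4 had all null pools higher, with changes of 0.28, 0.18 and 0.15, and the rest overlapped. Msln and Lrrn4 lay in the dimmest 25% of probe sets. The 8 neuronal markers overlapped in their sums, at 486 to 541 in null pools and 406 to 491 in wild-type pools, but not in their log2 means, at 4.932 to 5.026 in null pools and 4.591 to 4.926 in wild-type pools. Isl1, by far the brightest of them, made up most of each sum. It read 8.21 to 8.45 in null pools and 8.09 to 8.28 in wild-type pools on the log2 scale. Of the 8 neuronal markers, 7 were higher and 5 were below the median probe set. Their median change was 0.10, while Nefl, a neurofilament gene, had a change of 0.96 (SE 0.21), about that of Rspo1. For Nefl all null pools lay above the wild-type pools. The 8 macrophage markers (295 to 319 in null pools, 275 to 318 in wild-type pools) and 5 measured erythroid markers (19298 to 21654 in null pools, 18791 to 20239.8 in wild-type pools) overlapped as well. RMA values have no 0, so no marker was absent by value; the part of these cells in the Rspo1 result was not tested.

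**Figure D1:**
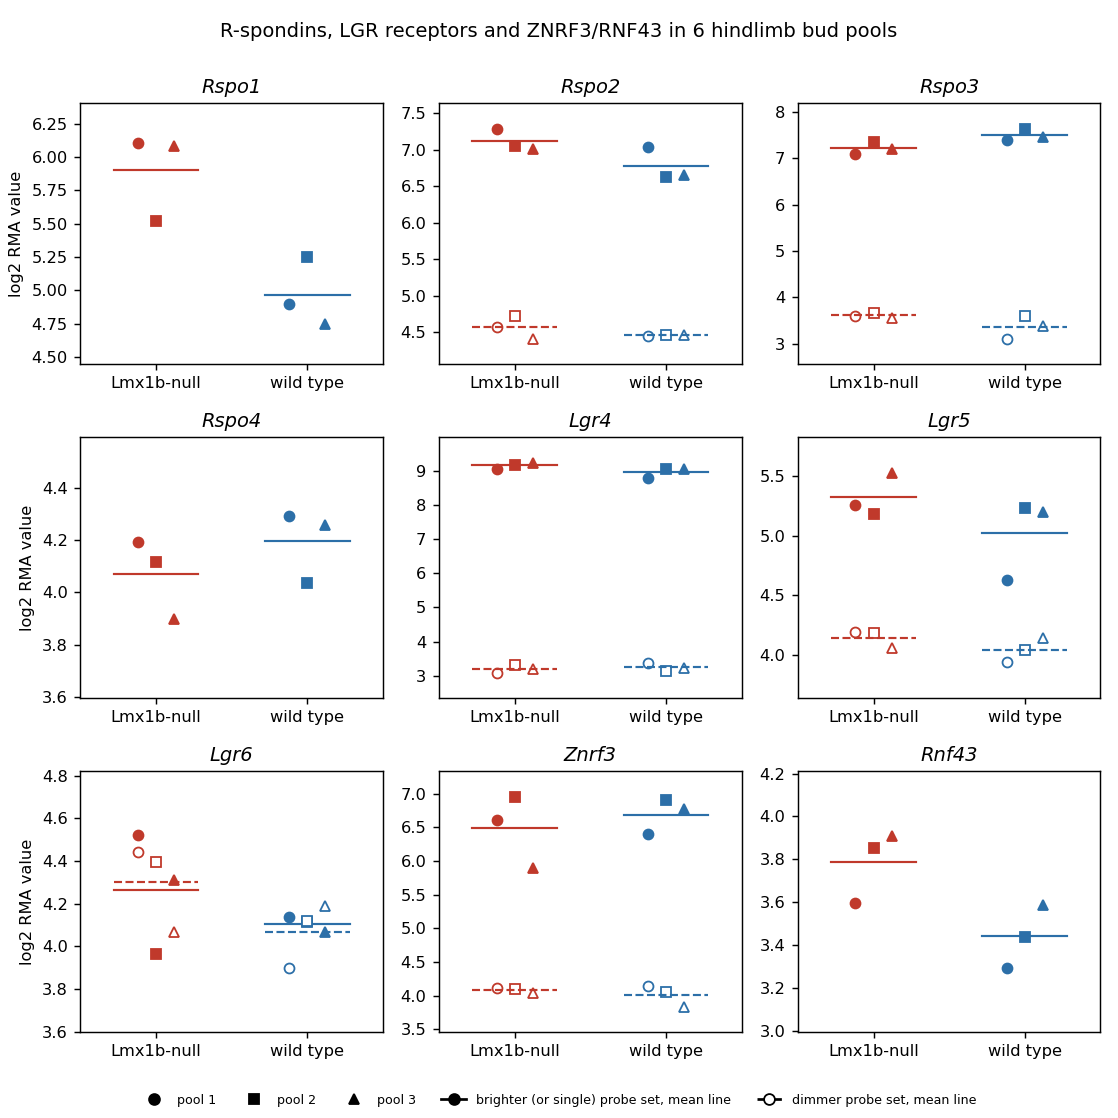
Log2 RMA values of the 15 probe sets of the 9 genes in each pool, Lmx1b-null left and wild type right, with a scale of its own in each panel. Circles, squares and triangles are pools 1, 2 and 3, filled symbols with solid mean lines are the brighter or single probe set, and open symbols with dashed mean lines are the dimmer one; Rspo1 has null pools at 5.52 to 6.10 and wild-type pools at 4.75 to 5.25.

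Rspo2, the R-spondin that mouse limb outgrowth depends on, was somewhat higher in null pools, with touching groups. Its brighter probe set read 7.29, 7.05 and 7.01 in null pools, against 7.04, 6.62 and 6.66 in wild-type pools. Wild-type pool 1 lay just above null pool 3, so the groups overlapped. The means were 7.12 ± 0.15 in null pools and 6.77 ± 0.23 in wild-type pools, a change of 0.35 (SE 0.13), or 1.27-fold. It was 0.50 with Xist in the fit. The dimmer Rspo2 probe set changed by 0.11 (SE 0.09), or 0.03 without null pool 2, at 4.41 to 4.72 in null pools and 4.44 to 4.46 in wild-type pools.

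Rspo3, an R-spondin that can bind heparan sulfate proteoglycans as well as LGRs, pointed the other way from Rspo1. The brighter probe set read 7.10, 7.35 and 7.20 in null pools, against 7.40, 7.64 and 7.47 in wild-type pools. Each null pool was below every wild-type pool, by a gap of only 0.05. The means were 7.22 ± 0.13 in null pools and 7.50 ± 0.12 in wild-type pools, a change of -0.28 (SE 0.09), or 1.22-fold lower. With Xist in the fit it was -0.39, and leaving out 1 pool gave -0.35 to -0.22. The dimmer probe set of Rspo3 disagreed in sign, with a change of 0.25 (SE 0.12) at 3.56 to 3.67 in null pools and 3.11 to 3.60 in wild-type pools. That change was 0.12 without wild-type pool 1 and 0.04 with Xist in the fit.

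Rspo4, known from human nail formation, gave low values in both groups. It read 4.19, 4.12 and 3.90 in null pools, against 4.29, 4.03 and 4.26 in wild-type pools. The groups overlapped, and the change of -0.13 (SE 0.10) had the opposite sign, 0.06, with Xist in the fit; it was -0.04 without null pool 3 and -0.21 without wild-type pool 2.

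Set side by side, the 4 R-spondins did not share a direction. Rspo1 stood at 0.94, and the 5 probe sets of its paralogues lay between -0.28 and 0.35. Adjusted for Xist, Rspo1 was at 0.60 and the brighter Rspo2 probe set at 0.50, and against wild-type pool 2 only they were at 0.65 and 0.50, so the distance between them was smaller in these settings.

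**Figure D2:**
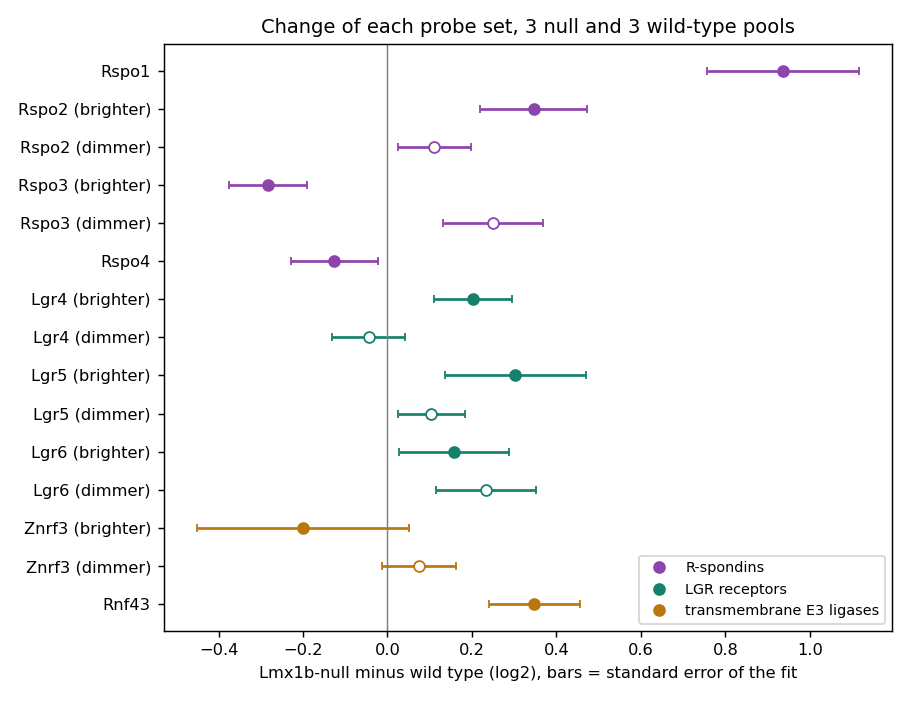
Null minus wild-type change of each of the 15 probe sets in log2 units, with bars of 1 standard error of the fit (3 pools a group); filled points are the brighter or single probe set of a gene and open points the dimmer one. Rspo1 lies at 0.94, and the other 14 probe sets lie between -0.28 and 0.35.

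Among the receptors, Lgr4, the broadly expressed LGR, had the probe set farthest up the array's range, at the 93.0th percentile of probe set means. Percentiles show how clear a probe set is of the dim end and do not rank transcript amounts between genes. It read 9.08, 9.19 and 9.25 in null pools, against 8.80, 9.06 and 9.05 in wild-type pools. All null pools were higher, by a gap of 0.02. The means were 9.17 ± 0.09 in null pools and 8.97 ± 0.15 in wild-type pools, a change of 0.20 (SE 0.09), and 0.11 with Xist in the fit. Without wild-type pool 1, the lowest, the change was 0.12. The second Lgr4 probe set lay in the dimmest 25% of the array, the only member probe set there, and changed by -0.04 (SE 0.09), with the sign turned without null pool 1 (0.01) or wild-type pool 1 (0.02).

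Lgr5, the stem cell marker and WNT-induced receptor, read 5.26, 5.19 and 5.53 in null pools, against 4.63, 5.23 and 5.20 in wild-type pools. Wild-type pools 2 and 3 lay among the null pools, and wild-type pool 1 was far below. The change of 0.30 (SE 0.17) was 0.11 without wild-type pool 1 and 0.05 with Xist in the fit. The dimmer probe set changed by 0.10 (SE 0.08), with overlapping groups, and by 0.05 without wild-type pool 1.

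Lgr6, a receptor known from skin stem cells, had a pair of probe sets of near-equal and low brightness. The first read 4.52, 3.96 and 4.31 in null pools, against 4.14, 4.11 and 4.07 in wild-type pools. The second read 4.44, 4.39 and 4.07 in null pools, against 3.90, 4.12 and 4.19 in wild-type pools. Both overlapped, with changes of 0.16 (SE 0.13) and 0.23 (SE 0.12). The first was 0.03 without null pool 1, and the second 0.15 without wild-type pool 1.

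The ligases differed from each other. Znrf3 was the most variable member: its brighter probe set read 6.61, 6.96 and 5.89 in null pools, against 6.40, 6.90 and 6.77 in wild-type pools. Null pool 3 stood below the other 5 pools, and the change of -0.20 (SE 0.25) became 0.10 without that pool. The dimmer Znrf3 probe set changed by 0.07 (SE 0.09), with overlapping groups, and by -0.01 without wild-type pool 3.

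Rnf43 had low values and a small offset between the groups. It read 3.60, 3.85 and 3.91 in null pools, against 3.29, 3.44 and 3.58 in wild-type pools. The groups were apart by 0.01. The means were 3.79 ± 0.17 in null pools and 3.44 ± 0.15 in wild-type pools, a change of 0.35 (SE 0.11), with 0.33 when Xist was in the fit and 0.27 to 0.44 with 1 pool left out. At the 30.4th percentile of probe set means the value carries little signal over background, where RMA compresses fold changes.

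Over the 9 genes, 11 of 15 probe sets were higher and 4 lower in null pools, with a median change of 0.16 against 0.01 over all 45037 probe sets. The groups did not overlap in 3 probe sets that were higher (Rspo1, Lgr4 and Rnf43) and in 1 that was lower (Rspo3), where 8.62% and 5.78% of all probe sets were placed so. In limma's fit 0 of 15 passed an adjusted p of 0.05 over all probe sets, against 0.0844% of all probe sets, and 4 of 15 had an unadjusted p under 0.05, against 9.41% of all. Since the same contrast brought Rspo1 forward, nothing is read from these counts. With Xist in the fit 13 of the 15 were higher.

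The chromosomal neighbours of Rspo1 showed small differences. The 6 measured protein-coding genes next to Rspo1 in order along chromosome 4 had changes of -0.16 to 0.08, and all 6 had overlapping groups. They were Epha10, Cdca8 and 9930104L06Rik before it and Gnl2, Dnali1 and Meaf6 after it. Rspo4 and Lgr4 lie on chromosome 2, Rspo2 on chromosome 15, Rspo3 and Lgr5 on chromosome 10, Lgr6 on chromosome 1, and Znrf3 and Rnf43 on chromosome 11.

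The probe sets nearest to Rspo1 over the 6 pools were found by root mean square difference, after each was set to its own wild-type mean, among 19309 probe sets above the median. They belonged to Ebf2, a transcription factor gene (0.19), Cap1, an actin regulator gene (0.19), Msc, the myogenic repressor gene musculin (0.20), the pseudogene Pisd-ps3 (0.23) and Pamr1 (0.23). Msc read 8.35, 8.05 and 8.27 in null pools, against 7.14, 7.72 and 7.45 in wild-type pools. Ebf2 read 7.47, 7.28 and 7.50 in null pools, against 6.23, 6.77 and 6.56 in wild-type pools. In Rspo1 and in each of the 5, null pool 2 was the lowest null pool and wild-type pool 2 the highest wild-type pool. The search itself favours genes with a similar group difference and a similar order of pools, so neither is a result. The other probe sets of Ebf2 changed by 0.86 and 1.02 and that of Cap1 by 0.88, close to the 0.90 and 0.87 of the probe sets found. The other 4 of Pisd-ps3 lay lower, at 0.22 to 0.47, against 0.73.

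**Figure D3:**
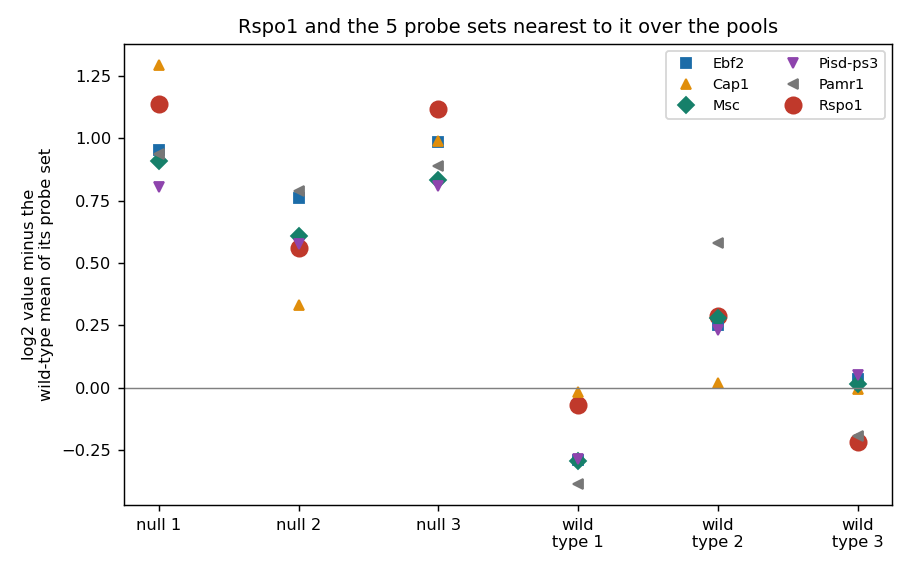
Rspo1 and the 5 probe sets nearest to it, as log2 values minus the wild-type mean of each probe set, in null pools 1 to 3 and wild-type pools 1 to 3. Each point is 1 array; null pool 2 is the lowest null pool and wild-type pool 2 the highest wild-type pool for all 6 genes.

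The pathway in which R-spondins act was read at 1 probe set per gene, the one with the highest mean, for 93 of 95 listed genes. None passed: 0 rose, 0 fell and 93 did not pass an adjusted p of 0.05 over 18193 genes in limma's fit, against 0.104% of all genes, and the smallest adjusted p was 0.218. At an unadjusted p under 0.05 there were 18, 11 higher and 7 lower, or 19.4% against 9.8% of all genes. The median change of the 93 was 0.04, and that of all genes 0.02.

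By role, 19 WNT ligands had a median change of 0.12, 15 receptors 0.07, 15 secreted and surface inhibitors 0.10, 19 relay components 0.01, 13 response genes 0.08 and 14 heparan sulfate partners -0.01. The lists share members: Lef1 was both a relay component and a response gene, and Notum, Apcdd1 and Dkk1 were both inhibitors and response genes. The 2 secretion genes changed by -0.14 (Wls, the WNT carrier) and 0.04 (Porcn, which acylates WNTs). In every list but the secretion genes, wild-type pool 1 had the lowest mean log2 value of the pools. For the ligands it was at 5.05, against 5.15 to 5.24 in the other pools. The 9 R-spondin, receptor and ligase genes at their brightest probe sets had a median of 0.20, with Rspo1 among them by choice.

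The ligand with the smallest p was Wnt5a, a non-canonical WNT of limb outgrowth. It averaged 9.05 ± 0.08 in null pools and 8.83 ± 0.12 in wild-type pools (change 0.23, SE 0.08; limma adjusted p = 0.429). Wnt7a, the dorsal ectodermal signal that induces Lmx1b, had changes of 0.17, -0.04 and 0.12 over 3 probe sets. En1, its ventral repressor, changed by 0.15. Neither gene passed (limma adjusted p of 0.606 or more over all probe sets). The En1 probe set was dim, at 2.71 in null pools and 2.56 in wild-type pools. So was the third Wnt7a probe set, at 2.99 and 2.87. Both lay in the dimmest 25% of each array, which ended at 3.31 to 3.36. Among receptors the smallest p belonged to the Frizzled gene Fzd4, at 7.81 ± 0.05 in null pools and 7.54 ± 0.14 in wild-type pools (change 0.27, SE 0.08; limma adjusted p = 0.385).

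The inhibitor with the smallest p was Frzb, a secreted Frizzled decoy of early cartilage. It read 9.50, 9.69 and 9.44 in null pools, against 9.14, 9.17 and 9.35 in wild-type pools. All null pools were higher, and the change was 0.32 (SE 0.09, limma adjusted p = 0.338). Sfrp1 of the same list had nearly as small a p and the other direction. Its change was -0.28 (SE 0.08, limma adjusted p = 0.351), with all null pools lower. The relay member with the smallest p was Btrc, which marks beta-catenin for breakdown. Its change was -0.18 (SE 0.08, limma adjusted p = 0.517).

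Response genes give a reading of the signal that R-spondins amplify. Axin2, the most widely used reporter of beta-catenin activity, read 8.96, 8.93 and 8.86 in null pools, against 8.65, 8.65 and 8.90 in wild-type pools. Wild-type pool 3 lay among the null pools, and the change was 0.19 (SE 0.09; limma adjusted p = 0.549 over all probe sets). Its dimmer probe set changed by 0.16 (SE 0.08), with no overlap and no pass (adjusted p = 0.581). Lef1, a nuclear partner of beta-catenin, had changes of 0.08 and 0.05. The smallest p of the list belonged to Dkk1, a WNT-induced inhibitor, at 5.85 ± 0.15 in null pools and 6.18 ± 0.16 in wild-type pools. Its change was -0.33 (SE 0.10, limma adjusted p = 0.404). Notum had almost the same p and the other direction, with a change of 0.24 (SE 0.08, limma adjusted p = 0.404) and all null pools higher. Of the 13 response genes, 8 were higher and 5 lower in null pools.

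Heparan sulfate proteoglycans, the syndecans and glypicans that hold R-spondins and WNTs at the cell surface, had the largest single difference of the pathway. Sdc2, syndecan 2, read 6.74, 6.66 and 6.66 in null pools, against 7.09, 7.82 and 7.39 in wild-type pools. The null pools were tight and all below the wild-type pools. The change of -0.75 (SE 0.16) did not pass over all genes (limma adjusted p = 0.218). The other Sdc2 probe sets changed by -0.56, -0.26 and -0.12, all lower. With wild-type pool 2 alone against the 3 null pools, Sdc2 was the 1 pathway gene that passed (change -1.14; limma adjusted p = 0.0337), and that lone pool was the highest wild-type pool for the gene.

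**Figure D4:**
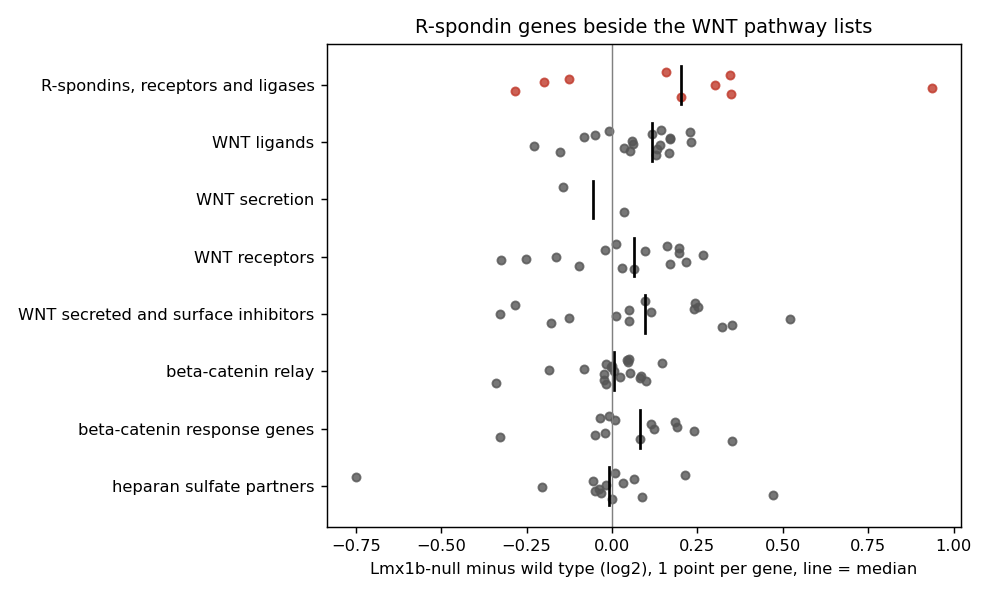
Lmx1b-null minus wild-type change (log2) of each gene at its brightest probe set, for the 9 R-spondin, receptor and ligase genes (red) and the 7 WNT pathway lists (grey), with a line at each median. Rspo1 at 0.94 and Sdc2 at -0.75 are the outermost points. Lef1, Notum, Apcdd1 and Dkk1 have a point in each list they belong to.

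Over the processing choices tried the Rspo1 change ranged from 0.60 to 1.13. Its sign is no sign of stability: Rspo1 was chosen for this difference, its groups do not overlap, so that no left-out pool could turn it, and the variance settings, the brightness filter and the pool block cannot alter a difference of means.

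**Figure D5:**
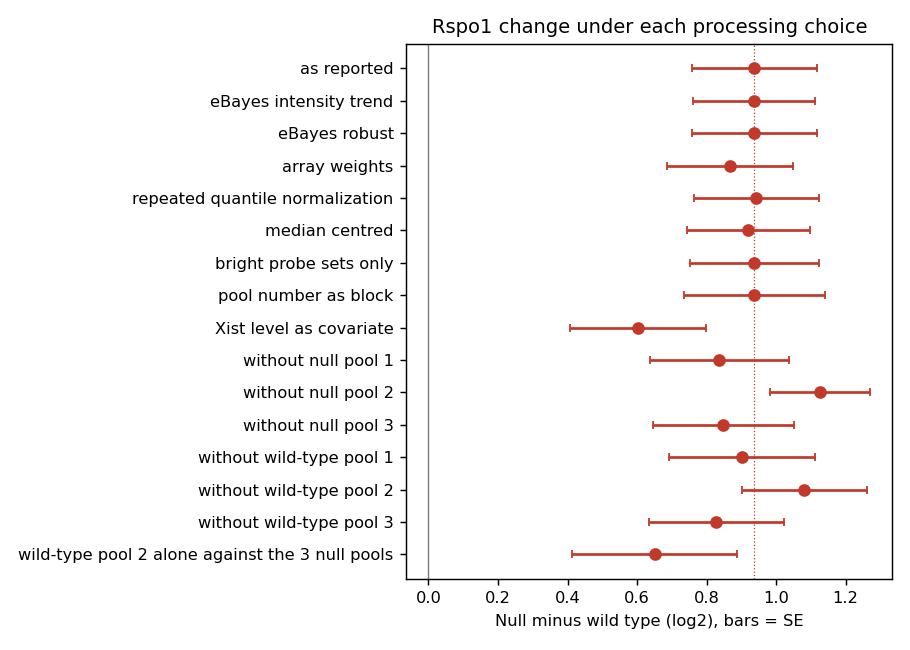
Rspo1 change, Lmx1b-null minus wild type (log2), as reported and under 15 other settings, with bars of 1 standard error of each fit. The smallest values are 0.60 with Xist as a covariate and 0.65 with wild-type pool 2 alone, and the largest is 1.13 without null pool 2.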

How the data were processed

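The authors deposited values for every probe set on every array, made with RMA per the submitters' processing notes (version not given in the sources used here) and treated as log2 values, the usual output of RMA. No label states the base. Quantile normalization inside RMA hides a shift of most transcripts. Of 45101 probe sets, 64 controls were left out. Names came from the platform annotation: 34945 probe sets had 1 symbol, 932 several and 9160 were unnamed here. The 9 gene identifiers were all found in RefSeq (GRCm38.p6), which also gave chromosomes, neighbours and promoters.

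Null and wild-type pools were tested in limma 3.58.1 under R 4.3.3 (lmFit, eBayes without trend or robust option, two-sided, Benjamini-Hochberg, threshold 0.05), tested on simulated data. With 3 pools a side an exact permutation test cannot go below 0.1. Arrays give no depth; their number limits the precision (median SE 0.0843). Pools are taken as biological replicates. A second fit used the brightest probe set of each of 18193 genes.

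The members and gene lists were chosen with earlier results of these data known. Genes named from a pathway list were up to 4 past the threshold, or else the one with the smallest p. Naming Porcn, Notum, Sfrp1, the markers' examples and the neighbours of Rspo1 goes beyond that rule. Pool numbers were not used as a pairing in the main fit, and no label states whether they pair the samples.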

Additional observations from a re-analysis of the deposited data

How the results depend on the processing

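Over all probe sets 38 were called; 94 were called with an intensity trend, 69 with array weights, 99 at an adjusted p under 0.1, 20 among bright probe sets and 9 with Xist as a covariate. With wild-type pool 2 alone, a setting chosen after seeing the data, 10 were called, and leaving out 1 pool gave 13 to 38. The robust option, median centring and repeated quantile normalization gave 37 to 42. With the pool number as a replicate block 14 were called, 12 of them among the 38. The block cannot move a difference of means, but it moved the SE of the members in both directions. The Rspo1 change of 0.94 had an SE of 0.20 with the block, against 0.18 without it. The brighter Rspo2 probe set had 0.08 against 0.13, and Rnf43 had 0.08 against 0.11. For the dimmer Lgr5 probe set it was 0.09 against 0.08. Deviations of same-numbered pools correlated at -0.239, -0.088 and -0.168. These values cannot decide whether same-numbered pools were handled together, and no label states it. The Rspo1 change was 0.60 with Xist in the fit and ranged up to 1.13 without null pool 2. The number of member probe sets higher in null pools was 11 of 15, 10 to 12 with 1 pool left out, 13 with Xist or with wild-type pool 2 alone, and 4 of 6 among bright probe sets. Of the pathway genes, 0 were called in 16 of 17 alternatives and 1, Sdc2, with wild-type pool 2 alone. That setting lends the spread of the null pools to a single wild-type pool. The cause of these differences was not tested. Centring moved the median over all probe sets to 0.00, against 0.01 before, and turned the direction of no member.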
